A study of Mus musculus with 6 samples.

Results

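Krüppel-like factors (Klf) were compared between haematopoietic stem cells of mice in which the ETV6-RUNX1 fusion was or was not induced. The 10 Klf genes described here, Klf2, Klf3, Klf4, Klf6, Klf7, Klf9, Klf10, Klf11, Klf12 and Klf13, were taken by gene symbol from a table of 55471 genes, which holds 17 numbered Klf symbols in all. Each symbol had a single row. Klf6 was the most abundant Klf transcript in both groups and rose with induction, while Klf2 and Klf4 fell on the scale of the deposited values. The Klf6 call held on every scale tried, and those of Klf2 and Klf4 did not. On the deposited scale the calls of Klf6 and Klf2 were lost in every fit with 1 library left out. That of Klf4 held in 2 of these 6 fits. Each of the 3 genes kept its direction in all of them. The calls of Klf6 and Klf2 were also lost without the variance trend, without the expression filter or with replicate number as a block. The other 7 genes did not pass the test.

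Klf proteins are transcription factors that bind GC-rich and CACCC-type DNA through a row of zinc fingers at the C-terminal end, which they share with the Sp factors. The family is commonly divided by the partners that the rest of the protein recruits. Klf3 and Klf12 bind the corepressor CtBP. Klf9, Klf10, Klf11 and Klf13 bind the corepressor Sin3. Klf2, Klf4, Klf6 and Klf7 form an activating branch, although Klf4 can also repress. In blood cells Klf2 is known for keeping lymphocytes quiescent, Klf4 for promoting monocyte differentiation, and several members, among them Klf2, Klf4, Klf6 and Klf10, are switched on within minutes of many stimuli as immediate early genes.

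All 6 libraries carried the genotype label ETV6-RUNX1, the fusion made by a translocation of childhood B-cell precursor leukaemia. The uninduced group (3 libraries) came from mice without doxycycline and the induced group (3 libraries) from mice given doxycycline in food for 2 weeks. Cells were sorted as Lin- Kit+ Sca1+ CD48- CD150+. Doxycycline without the fusion was not analysed here, so the effects of the drug and of the fusion cannot be told apart. The promoter that drives the fusion, the age of the mice and whether a library holds cells of 1 mouse or several are not given in the sources used here. P-values measure the spread between these libraries.

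Values are TPM (a share of the library corrected for gene length), so levels of different genes can be set side by side, and the read depth behind them is unknown. Between libraries of a group the Spearman correlation across tested genes was 0.884 to 0.903, and no library stood apart. Nuclear protein-coding genes held 26.6% to 32.9% of the TPM in uninduced and 20.5% to 23.2% in induced libraries, and the median change over 13470 tested genes was -0.35 on the log2(TPM + 1) scale. Each Klf change is therefore also given after median-of-ratios scaling, which puts that median at 0.0032. The stem cell markers Kit, Ly6a, Slamf1, Procr, Mecom, Hlf and Meis1 were present in every library, with Procr at 39.0 to 50.2 TPM in uninduced and 93.6 to 113 TPM in induced libraries and Kit at 142 to 232 and 91.6 to 103 TPM. Cd3d, Cd3e, Cd3g, Trac and Cd8a of T cells and Cd79a, Ebf1, Pax5 and Ms4a1 of B cells were listed at 0 throughout. Cd4 reached 0.881 TPM and was above 0 in 3 libraries, and the B cell gene Cd79b was at 4.21 to 9.86 TPM in uninduced and 3.11 to 3.85 TPM in induced libraries.

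Of the 10 Klf genes, all passed the minimum of a mean of 1 TPM. In the limma fit over all tested genes, 2 were lower and 1 was higher in induced cells at an adjusted p under 0.05. Over all tested genes, 10.2% were lower and 1.29% higher. After median-of-ratios scaling 0 Klf genes were lower and 1 was higher, beside 3.10% and 2.88% of all tested genes. At an unadjusted p under 0.05 on the deposited scale, 3 Klf genes were lower and 1 was higher, beside 24.2% and 3.73% of all tested genes. The median log2 change of the 10 genes was 0.11 on the deposited scale, and 6 of the 10 lay above the median of all genes. On the deposited scale the groups did not overlap in 4 Klf genes with induced libraries lower (Klf2, Klf4, Klf12 and Klf13) and 2 with them higher (Klf6 and Klf11), beside 28.2% and 4.83% of all tested genes. After median-of-ratios scaling this held for 3 lower (Klf2, Klf4 and Klf12) and 4 higher (Klf3, Klf6, Klf10 and Klf11), beside 14.3% and 13.6%. Nothing particular to the family is read from these counts.

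**Figure D1:**
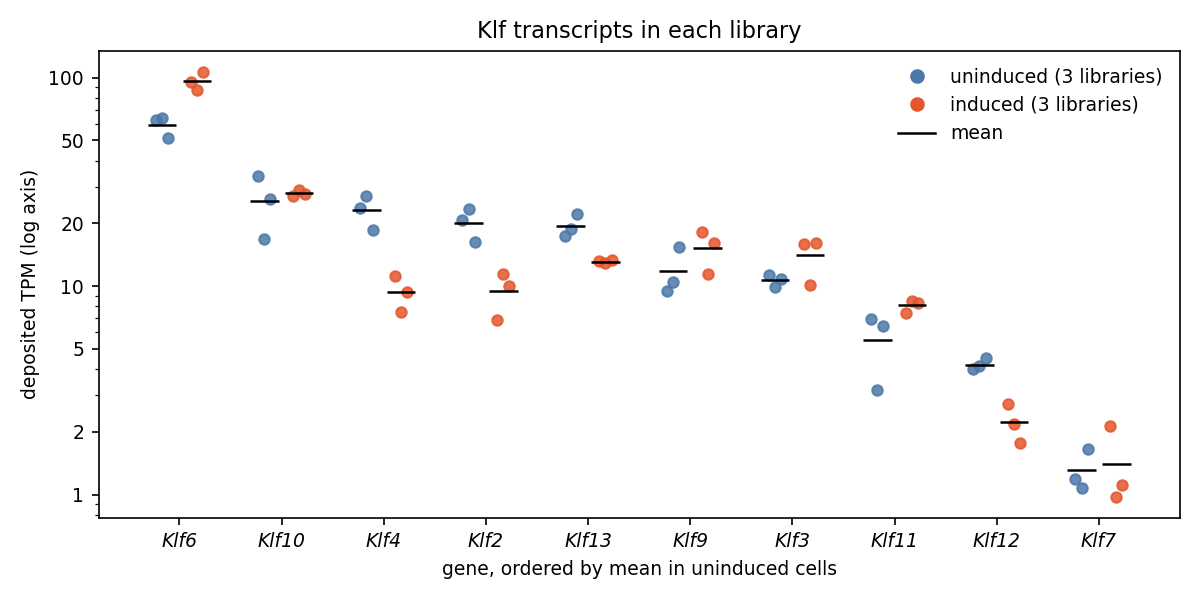
Deposited TPM (log axis) of the 10 Klf genes in each of the 3 uninduced (blue) and 3 induced (orange) libraries, ordered by the uninduced mean, with the group mean as a bar. Klf6 lies above every other gene in both groups, and Klf4, Klf2, Klf13 and Klf12 have all induced libraries below all uninduced ones (28.2% of tested genes do), and Klf6 and Klf11 have them above (4.83% do).

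Klf6, an activator known from liver and vascular injury and as a growth suppressor, was the leading family member. It lies on chromosome 13 (GRCm38, 5861482 to 5870394, plus strand) in 4 exons. Its uninduced levels were 62.9, 64.1 and 51.2 TPM, and its induced levels were 95.4, 87.1 and 106 TPM. The lowest induced library was above the highest uninduced one, as for 4.83% of all tested genes. The mean was 1.62 times higher in induced cells, a log2 difference of 0.69 (SE 0.17, 95% interval 0.30 to 1.08, limma adjusted p 0.0328).

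Scaling enlarged the Klf6 rise. After median-of-ratios scaling Klf6 was at 52.4, 50.4 and 48.4 scaled TPM without induction and at 107, 106 and 113 with it, again without overlap. The mean was then 2.16 times higher, with a log2 difference of 1.09 (SE 0.13, limma adjusted p 0.00283). On the deposited scale the call was lost when any 1 of the 6 libraries was left out (adjusted p 0.0571 to 0.103), with log2 differences of 0.59 to 0.76. It was also lost without the variance trend (adjusted p 0.117), without the expression filter (adjusted p 0.0549) and with replicate number as a block (adjusted p 0.0904). After median-of-ratios scaling, it held without each of the 6 libraries in turn (adjusted p 0.0124 to 0.0220), a check chosen after seeing the data.

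Klf4, known as a reprogramming factor and in monocyte differentiation, changed the other way. It lies on chromosome 4 (GRCm38, 55527143 to 55532466, minus strand) in 5 exons. Klf4 stood at 23.8, 27.1 and 18.7 TPM in uninduced and at 11.2, 7.54 and 9.41 TPM in induced libraries. All induced libraries were below all uninduced ones, which held for 28.2% of tested genes in this direction. The mean was 2.48 times lower in induced cells, with a log2 difference of -1.22 (SE 0.26, 95% interval -1.80 to -0.64, limma adjusted p 0.0170).

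Klf2, the quiescence factor of lymphocytes and a flow-responsive gene of endothelium, showed a like fall. It is a short gene of 3 exons on chromosome 8 (GRCm38, 72319033 to 72321656, plus strand). Klf2 stood at 20.8, 23.3 and 16.3 TPM in uninduced and at 6.87, 11.4 and 10.04 TPM in induced libraries, again without overlap. The mean was 2.13 times lower, with a log2 difference of -1.03 (SE 0.27, 95% interval -1.64 to -0.42, limma adjusted p 0.0404).

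Both falls were smaller once the general offset was taken out. Klf4 was at 19.8, 21.3 and 17.7 scaled TPM in the uninduced and 12.6, 9.13 and 9.99 scaled TPM in the induced libraries after median-of-ratios scaling, a log2 difference of -0.84 (limma adjusted p 0.0610). Klf2 was at 17.3, 18.3 and 15.4 against 7.73, 13.8 and 10.7 scaled TPM, a log2 difference of -0.65 (limma adjusted p 0.180). The groups of both genes still did not overlap on that scale, but neither call held. On the deposited scale the Klf2 call was lost without any 1 of the 6 libraries (adjusted p 0.0513 to 0.126), with log2 differences of -1.17 to -0.84. It was also lost without the variance trend (adjusted p 0.0715), without the expression filter (adjusted p 0.0848) and with replicate number as a block (adjusted p 0.0722). The Klf4 call held without uninduced replicate 3 or induced replicate 1 and was lost without any other library (adjusted p up to 0.0719), with log2 differences of -1.36 to -1.09.

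**Figure D2:**
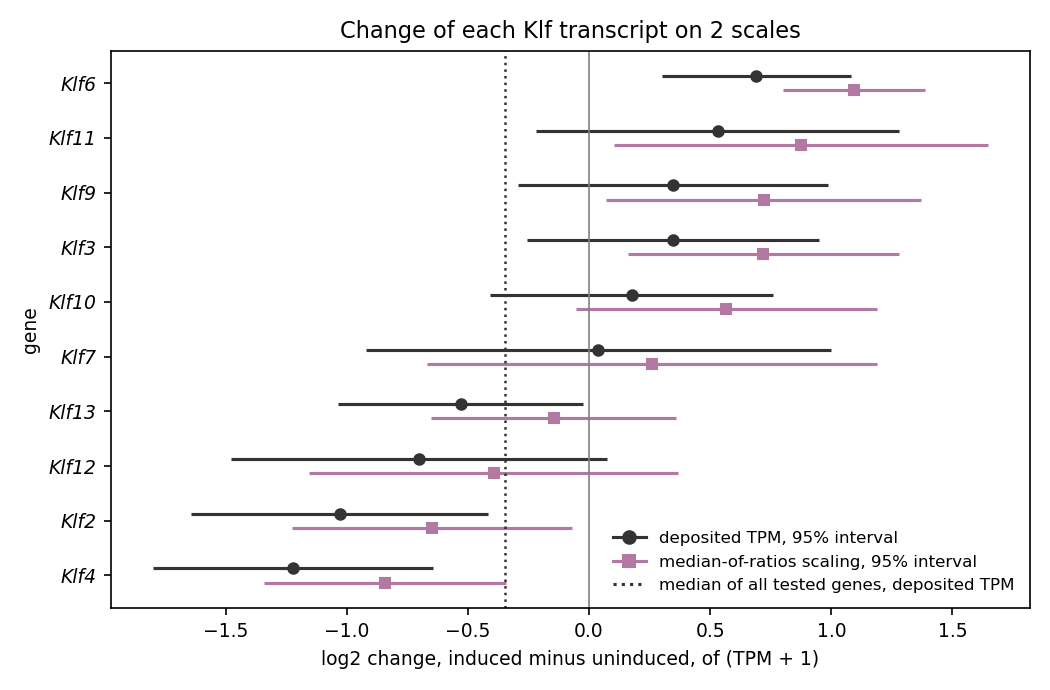
Log2 change (induced minus uninduced, of TPM + 1) of each Klf gene with its 95% interval, on the deposited scale (black circles) and after median-of-ratios scaling (purple squares); the dotted line marks the median of all tested genes on the deposited scale, at -0.35. Scaling moves each gene to the right, Klf6 to 1.09, and leaves Klf4 and Klf2 as the lowest.

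**Figure D3:**
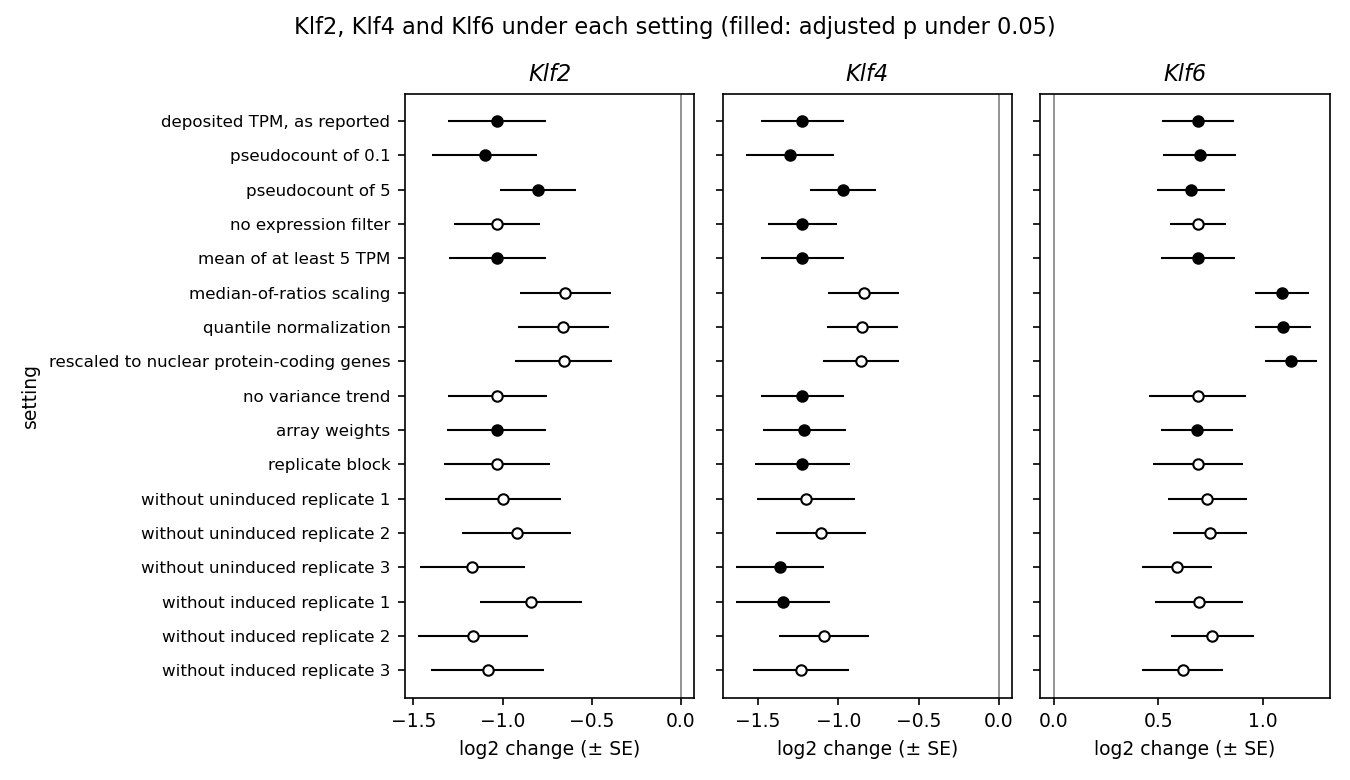
Log2 change (± SE) of Klf2, Klf4 and Klf6 under the deposited scale and 16 alternatives, filled where the adjusted p was under 0.05. Klf2 and Klf4 stay below 0 and Klf6 above 0 in every row, and the filled points differ between rows: 4 alternatives for Klf2, 9 for Klf4 and 7 for Klf6.

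Ratios within a library do not depend on the scale. Klf6 over Klf4 was 2.64, 2.36 and 2.74 in uninduced and 8.55, 11.6 and 11.3 in induced libraries. Klf6 over Klf2 was 3.02, 2.75 and 3.15 in uninduced and 13.9, 7.65 and 10.6 in induced libraries. Both ratios pair a gene chosen as higher with one chosen as lower, so their separation between groups is a description and no further support. Klf4 over Klf2 was 1.14, 1.16 and 1.15 in uninduced libraries and 1.62, 0.662 and 0.937 in induced libraries, so these genes kept near-equal levels in the uninduced group and varied around equality in the induced group.

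The sequences before the start sites of these genes are shown because Klf2 and Klf4 were lower and Klf6 higher in induced libraries on the deposited scale. Each window runs from 250 to 31 bases before the RefSeq start site (GRCm38.p6), printed 5′ to 3′ on the gene's strand: Klf2 at chr8:72318812-72319031 (plus), Klf4 at chr4:55532506-55532725 (minus) and Klf6 at chr13:5861239-5861458 (plus). Capitals mark the GC box GGGCGG, which Sp and Klf factors bind, and the CCAAT box CCAAT, each on either strand. Both motifs were added after the sequences were seen.
Klf2: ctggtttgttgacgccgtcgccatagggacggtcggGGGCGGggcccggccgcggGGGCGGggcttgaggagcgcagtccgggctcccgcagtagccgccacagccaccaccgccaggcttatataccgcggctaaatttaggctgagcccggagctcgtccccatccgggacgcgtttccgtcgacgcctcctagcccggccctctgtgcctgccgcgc
Klf4: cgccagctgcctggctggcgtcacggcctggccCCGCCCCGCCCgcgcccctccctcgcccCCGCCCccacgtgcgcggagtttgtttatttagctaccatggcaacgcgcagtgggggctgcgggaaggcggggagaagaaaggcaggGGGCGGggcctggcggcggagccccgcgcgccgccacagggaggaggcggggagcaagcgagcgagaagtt
Klf6: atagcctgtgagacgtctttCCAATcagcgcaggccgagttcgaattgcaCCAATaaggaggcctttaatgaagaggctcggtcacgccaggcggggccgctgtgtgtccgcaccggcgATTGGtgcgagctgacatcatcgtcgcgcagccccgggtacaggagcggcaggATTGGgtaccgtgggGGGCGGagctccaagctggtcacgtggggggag

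The Klf2 window holds 2 GC boxes and the Klf4 window 4, a pair of which share a base, and neither holds a CCAAT box. The Klf6 window holds 1 GC box and 4 CCAAT boxes. Of 9 Klf genes with a window in the RefSeq table, 7 hold a GC box (Klf2, Klf3, Klf4, Klf6, Klf7, Klf11 and Klf13). A CCAAT box is in 4 (Klf6, Klf9, Klf11 and Klf13). Of all 32851 windows, 28.5% and 31.01% hold these boxes. The carriers are not split by direction of change. Klf13, lower in all induced libraries on the deposited scale, holds 2 CCAAT boxes. Klf3, higher without overlap after median-of-ratios scaling, holds 6 GC boxes and no CCAAT box. Klf10 had no entry. The CACCC box was present in 4 (Klf3, Klf7, Klf9 and Klf12), beside 47.8% of all windows, and its letters can share bases with a GC box, as in Klf3. The TATAAA box was present in Klf12 alone, beside 9.95% of all windows, and its letters lie within the MEF2 letters. The Klf12 window belongs to a RefSeq start 134883 bases inside the GENCODE gene span, and that of Klf7 to one 893 bases inside. The letters searched for RUNX (TGTGGT), cyclic AMP (TGACGTCA), MEF2 (CTATTTATA), ETS (CCGGAAG) and AP-1 (TGACTCA) sites matched in none of the 9 windows on either strand. Of all windows, 12.7%, 1.14%, 0.247%, 4.99% and 4.01% hold them, respectively. GC content was 71.4% in the Klf2 window, 74.5% in Klf4 and 63.2% in Klf6, beside a median of 51.8%. These matches are descriptions of letters only.

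Klf7, the remaining member of the activating branch and a factor best known from neurons, was the least abundant. It was at 1.196, 1.07 and 1.66 TPM in uninduced and 2.14, 0.979 and 1.12 TPM in induced libraries, with overlapping groups. The log2 difference was 0.04 (95% interval -0.92 to 1.00, limma adjusted p 0.965), and it was 0.26 (adjusted p 0.771) after median-of-ratios scaling. With 1 library left out it ranged from -0.17 to 0.17 on the deposited scale and from 0.047 to 0.40 after scaling. The sign on the deposited scale turned without induced replicate 1 (-0.17) or uninduced replicate 2 (-0.035), and the lowest scaled value was without induced replicate 1.

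The CtBP-binding pair did not pass the test in either direction. Klf12, a repressor first described on the AP-2 alpha gene, was at 3.99, 4.12 and 4.51 TPM in uninduced and 2.73, 2.17 and 1.77 TPM in induced libraries. Its groups did not overlap, with all induced libraries lower, and the log2 difference was -0.70 (95% interval -1.48 to 0.08, limma adjusted p 0.222). After median-of-ratios scaling the Klf12 difference was -0.39 (adjusted p 0.552), still without overlap, and -0.26 without induced replicate 3. Klf3, which represses genes in erythroid and fat cells, was at 11.3, 9.89 and 10.8 TPM in uninduced and 16.0, 10.1 and 16.2 TPM in induced libraries. Induced replicate 2 lay among the uninduced libraries and the other 2 induced libraries above them. The log2 difference was 0.35 (95% interval -0.26 to 0.95, limma adjusted p 0.439), and 0.55 without induced replicate 2. After median-of-ratios scaling the Klf3 groups no longer overlapped, at 7.78 to 10.3 scaled TPM in uninduced and 12.3 to 18.0 scaled TPM in induced libraries, with a log2 difference of 0.72 (adjusted p 0.131). The ratio of Klf3 to Klf12 within a library was 2.40 to 2.83 in uninduced and 4.67 to 9.14 in induced libraries. It pairs a gene with a higher induced mean and one with a lower, so its separation is a description and no further support.

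None of the 4 Sin3-binding members passed limma's adjusted threshold on either scale, and 1, Klf13, had an unadjusted p under 0.05 (0.0413). Klf13, which activates the chemokine gene Ccl5 in T cells, was at 17.4, 18.8 and 22.3 TPM in uninduced and 13.2, 12.9 and 13.3 TPM in induced libraries. The induced libraries were almost equal and all lower. The log2 difference was -0.53 (95% interval -1.04 to -0.03, adjusted p 0.159). After median-of-ratios scaling the groups overlapped and it was -0.15 (adjusted p 0.761), and the median gene on the deposited scale was at -0.35. With 1 library left out, the Klf13 difference ranged from -0.60 to -0.44 on the deposited scale and from -0.24 to 0.019 after median-of-ratios scaling.

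Klf10, an early target of TGF-beta signalling, had the second highest mean of the family in both groups. In uninduced libraries it overlapped Klf4, Klf2 and Klf13, and in replicate 2 it was below all of them. It stood at 33.7, 16.8 and 26.05 TPM in uninduced and at 27.1, 28.8 and 27.8 TPM in induced libraries. The uninduced libraries spread on both sides of the induced ones, which were close together. The log2 difference was 0.18 (95% interval -0.41 to 0.76, limma adjusted p 0.703), and without uninduced replicate 2, the lowest library, it was -0.086. After median-of-ratios scaling the Klf10 groups did not overlap, with a log2 difference of 0.57 (adjusted p 0.274), which was 0.25 without uninduced replicate 2. Klf11, its closest relative in the family, was at 6.95, 3.19 and 6.46 TPM in uninduced and 7.46, 8.48 and 8.32 TPM in induced libraries. Its groups did not overlap, with all induced libraries higher, and the log2 difference was 0.53 (95% interval -0.22 to 1.28, adjusted p 0.341). It was 0.24 without uninduced replicate 2, the lowest library, and 0.87 (adjusted p 0.175) after median-of-ratios scaling, where it was 0.55 without that library.

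Klf9, a target of glucocorticoid and thyroid hormone receptors, was at 9.48, 10.5 and 15.4 TPM in uninduced and 18.1, 11.4 and 16.0 TPM in induced libraries, with overlap. Its log2 difference was 0.35 (95% interval -0.29 to 0.98, limma adjusted p 0.467) on the deposited scale and 0.72 (adjusted p 0.185) after median-of-ratios scaling. The Klf9 difference on the deposited scale was 0.22 without uninduced replicate 1 or induced replicate 1, 0.54 without uninduced replicate 3 and 0.53 without induced replicate 2. The ratio of Klf13 to Klf9 was 1.45 to 1.84 in uninduced and 0.726 to 1.13 in induced libraries. This ratio also pairs genes whose means went in opposite directions, so its separation is a description only.

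The order of levels within the family changed below its top. In uninduced cells the mean TPM ran from Klf6 (59.4) through Klf10 (25.5), Klf4 (23.2), Klf2 (20.1), Klf13 (19.5), Klf9 (11.8), Klf3 (10.7), Klf11 (5.53) and Klf12 (4.21) to Klf7 (1.31). Neighbours from Klf10 down to Klf13 overlapped, as did Klf9 with Klf3 and Klf11 with Klf12, while Klf6 stood clear of Klf10. In induced cells the order was Klf6 (96.3), Klf10 (27.9), Klf9 (15.2), Klf3 (14.1), Klf13 (13.1), Klf2 (9.43), Klf4 (9.37), Klf11 (8.09), Klf12 (2.22) and Klf7 (1.41). There Klf10 stood clear of Klf9 and Klf13 clear of Klf2. Klf9, Klf3 and Klf13 overlapped as neighbours, as did Klf2, Klf4 and Klf11, and Klf12 with Klf7.

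The summed level of the 10 genes overlapped between groups. It was 192, 179 and 173 TPM in uninduced libraries (181 ± 9.39, SD, n = 3) and 200, 181 and 210 TPM in induced libraries (197 ± 15.0, SD, n = 3). Within this pool Klf6 held 32.7% ± 3.15 (SD, n = 3) in uninduced and 48.8% ± 1.58 (SD, n = 3) in induced libraries. The share of Klf2 went from 11.1% ± 1.84 (SD, n = 3) to 4.83% ± 1.43 (SD, n = 3), and that of Klf4 from 12.8% ± 2.20 (SD, n = 3) to 4.74% ± 0.740 (SD, n = 3). Klf12 held 2.33% and 1.14% and Klf13 10.8% and 6.67% of the pool on average. Klf10 held 14.0% and 14.2%. The activating branch summed to 104 ± 14.5 TPM (SD, n = 3) without induction, and with induction to 117 ± 10.05 TPM (SD, n = 3), with a higher Klf6 level beside lower Klf2 and Klf4 levels. The Sin3-binding branch was at 62.3 ± 11.4 and 64.3 ± 2.35 TPM (SD, n = 3 each).

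**Figure D4:**
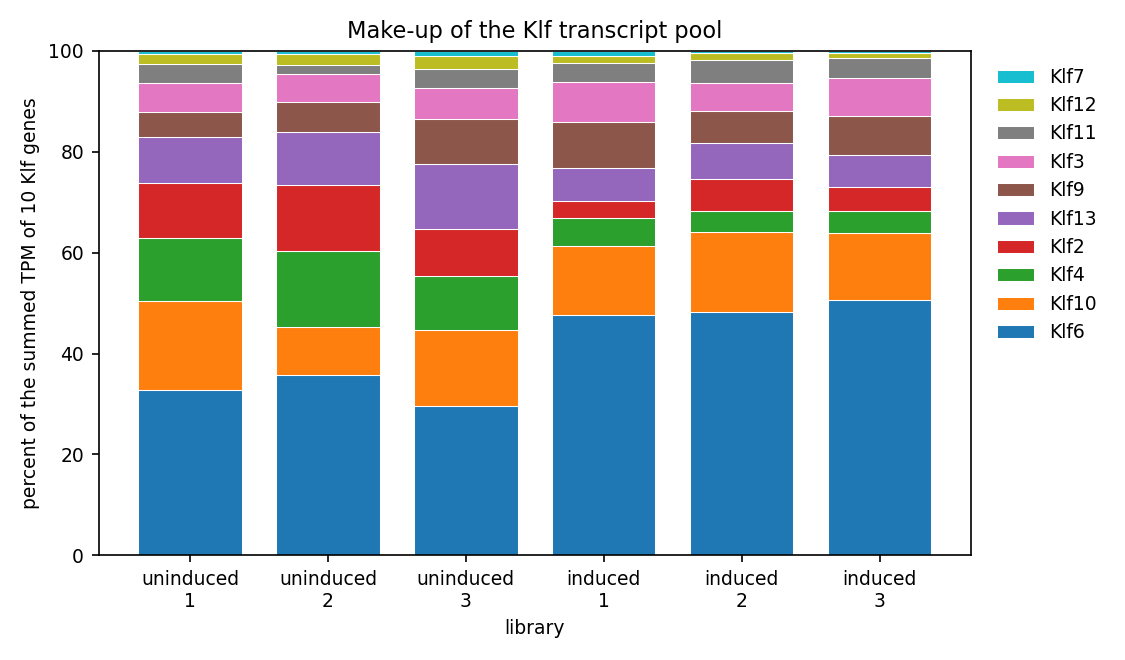
Percent of the summed TPM of the 10 Klf genes held by each gene in each library, 3 uninduced and 3 induced. The Klf6 segment (blue, at the base) covers 29.5% to 35.8% of the bar in uninduced and 47.7% to 50.6% in induced libraries, and the Klf4 (green) and Klf2 (red) segments are narrower in all 3 induced libraries.

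The other genes of the zinc finger family were mostly low. Of 16 further Klf and Sp genes, 7 were tested and 0 passed limma's adjusted threshold on either scale, with 0 higher and 2 lower at an unadjusted p under 0.05, beside 24.2% lower and 3.73% higher of all tested genes. Klf1, the erythroid master factor, was at 0.0352, 0.363 and 1.94 TPM in uninduced and 4.11, 1.53 and 1.58 TPM in induced libraries, with overlap (log2 difference 1.00, limma adjusted p 0.260). Klf16, a Sin3-binding relative, was at 7.89 to 10.6 TPM in uninduced and 4.03 to 6.73 TPM in induced libraries (adjusted p 0.147). Sp3 was at 20.7 to 25.5 and 15.0 to 15.6 TPM (adjusted p 0.133), and Sp1 overlapped at 8.53 to 26.3 and 10.6 to 17.0 TPM. Sp4, named after its values were seen, was higher without overlap on both scales, at 4.59 to 6.32 and 7.82 to 8.34 TPM (adjusted p 0.340, and 0.134 after median-of-ratios scaling). Over the 7, the log2 differences had a median of 0.36. Klf5, an activator of proliferating epithelia, stayed under the minimum, between 0 and 1.501 TPM. Klf14 and Klf17 were among 6 genes of the list at 0 in all libraries.

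Klf2, Klf4, Klf6 and Klf10 were set beside 25 other immediate early genes, of which 22 could be tested. On the deposited scale 5 were lower and 0 higher in limma, beside 10.2% and 1.29% of all tested genes, with 6 lower and 3 higher at an unadjusted p under 0.05, where 24.2% and 3.73% of all tested genes lay. Median-of-ratios scaling gave 3 lower and 4 higher, beside 3.10% and 2.88% of all tested genes. Their median log2 change was -0.22 on the deposited scale, beside -0.35 for all tested genes. Nr4a1, an orphan nuclear receptor, was at 51.2 to 67.5 TPM in uninduced and 2.47 to 5.42 TPM in induced libraries (log2 difference -3.82, limma adjusted p 0.000197). Egr1, a zinc finger factor induced by growth signals, was at 121 to 140 and 26.4 to 29.5 TPM (log2 difference -2.18, adjusted p also 0.000197). Jun, Fosb and Fos, subunits of AP-1, had log2 differences of -0.87, -0.70 and -0.67. Of the 5, Fos and Fosb did not pass after median-of-ratios scaling (adjusted p 0.143 and 0.1698).

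Klf2 and Klf4 lay on the side of Jun, Egr1 and Nr4a1, although neither passed after scaling as those did. Klf6 lay on the other side. The genes called higher after median-of-ratios scaling were Ier5, Fosl2, Rhob and Dusp1, named after their values were seen, and their log2 differences on that scale were 1.32, 1.14, 0.94 and 0.61, beside 1.09 for Klf6.

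**Figure D5:**
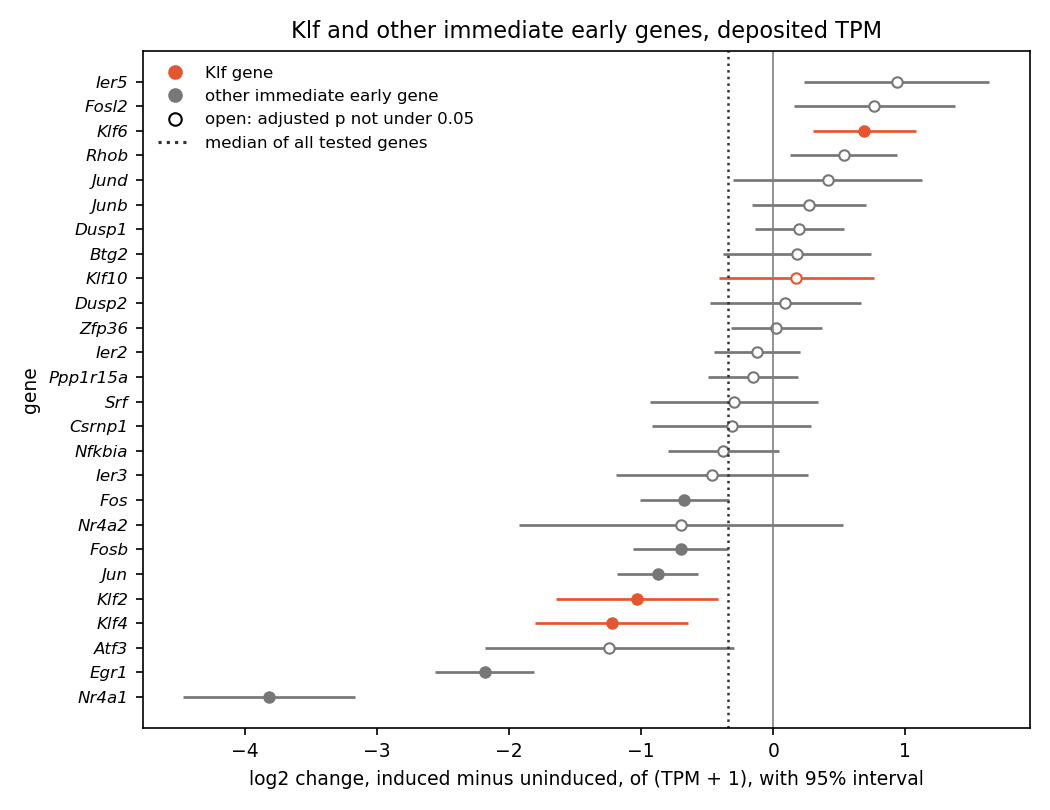
Log2 change (induced minus uninduced, of TPM + 1) on the deposited scale, with 95% intervals, of Klf2, Klf4, Klf6 and Klf10 (orange) among 22 other immediate early genes (grey), filled where the adjusted p was under 0.05. Klf4 (-1.22) and Klf2 (-1.03) stand between Jun (-0.87) and Egr1 (-2.18), and Klf6 (0.69) is the single filled point to the right of 0.

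Genes that act on or through Klf proteins were taken in 2 lists. Among 14 corepressors, coactivators and ubiquitin ligases, 0 were higher and 1 lower (all tested genes: 1.29% and 10.2%), and 0 passed after median-of-ratios scaling. At an unadjusted p under 0.05, 0 were higher and 3 lower on the deposited scale, where 3.73% and 24.2% of all tested genes lay. The lower gene was Hdac2, a histone deacetylase of the Sin3 complex, at 40.0 to 61.7 TPM in uninduced and 24.3 to 32.1 TPM in induced libraries (log2 difference -0.81, limma adjusted p 0.0432), which was -0.42 (adjusted p 0.303) after median-of-ratios scaling. Of 12 genes of the Erk5, Mef2 and FoxO inputs known to induce Klf2 and Klf4, 11 were tested and 0 passed in limma, with 1 higher and 1 lower at an unadjusted p under 0.05 (all tested genes: 3.73% and 24.2%). After scaling, Map3k3, a kinase upstream of Erk5 named after its values were seen, was higher (log2 difference 1.008, adjusted p 0.0356). Map2k5, the kinase between Map3k3 and Erk5, was also named after its values were seen. It was lower without overlap on both scales, at 21.7 to 27.9 and 13.8 to 15.8 TPM. Map2k5 did not pass on the deposited scale (adjusted p 0.0719) or after scaling (log2 difference -0.30, adjusted p 0.429). Mapk7, which encodes Erk5, was at 1.98 to 3.92 TPM in uninduced and 2.91 to 7.61 TPM in induced libraries, with overlap (adjusted p 0.430).

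Of 16 genes reported elsewhere as Klf targets, 11 were tested and 0 passed limma's adjusted threshold on either scale, with 0 higher and 1 lower at an unadjusted p under 0.05 (all tested genes: 3.73% and 24.2%). S1pr1, the lymphocyte egress receptor controlled by Klf2, was at 6.95 to 10.2 TPM in uninduced and 3.87 to 8.29 TPM in induced libraries (adjusted p 0.528). Cdkn1a, a cell cycle inhibitor gene bound by Klf4 and Klf6, was at 1.02 to 5.35 and 1.47 to 4.63 TPM, with a log2 difference of 0.16 (adjusted p 0.868). Smad7, an inhibitor of TGF-beta signalling, and Thbd, which encodes thrombomodulin, were named after their values were seen and were lower without overlap on both scales. Smad7 was at 8.54 to 9.92 and 3.90 to 5.96 TPM (adjusted p 0.0927), and Thbd at 0.703 to 3.91 and 0.199 to 0.538 TPM (adjusted p 0.283). After median-of-ratios scaling their adjusted p was 0.337 and 0.436. The groups of S1pr1 and Cdkn1a overlapped, and the 95% interval on the log2 scale ran from -0.99 to 1.31 for Cdkn1a.

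Genes of the glucocorticoid response were set beside Klf9, a known target of the receptor. Of 10 genes, 9 were tested and 0 passed in limma on the deposited scale, with 1 higher and 1 lower at an unadjusted p under 0.05 (all tested genes: 3.73% and 24.2%). Tsc22d3, a receptor target that encodes GILZ, was at 48.3 to 54.7 TPM in uninduced and 60.4 to 65.2 TPM in induced libraries, without overlap (log2 difference 0.29, adjusted p 0.290), and median-of-ratios scaling brought it past the threshold (0.69, adjusted p 0.0286). Zbtb16, named after its values were seen, was lower without overlap on both scales, at 3.74 to 9.18 and 1.06 to 2.15 TPM. It did not pass (log2 difference -1.38, adjusted p 0.0577, and 0.144 after scaling). Sgk1, also named after its values were seen, was higher without overlap on both scales, at 0.275 to 1.81 and 2.43 to 3.75 TPM. It did not pass (log2 difference 1.31, adjusted p 0.0993, and 0.0730 after scaling). Fkbp5, another such target, overlapped at 7.80 to 19.5 and 6.74 to 14.8 TPM.

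Some marker sums of other cells differed between the groups on the deposited scale, and their part in the Klf changes was not tested. The sums and ranges below are deposited TPM and so hold the general offset. The 6 erythroid markers summed to 29.98 to 40.7 TPM in uninduced and 266 to 316 TPM in induced libraries, and the 6 granulocyte markers to 177 to 194 and 98.9 to 123 TPM. All 6 of each were detected. No granulocyte marker passed in limma on the deposited scale (adjusted p 0.0773 to 0.293). After median-of-ratios scaling the groups of all 6 granulocyte markers overlapped (limma adjusted p 0.396 to 0.826). The erythroid sum was mostly Hba-a1 and Hbb-bs, while Epor was lower in induced libraries, at 2.10 to 4.57 and 0 to 1.45 TPM. After scaling Hba-a1 and Hbb-bs stayed higher and Epor lower, each without overlap. The 6 monocyte and macrophage markers summed to 81.5 to 128 and 131 to 147 TPM, of which Lyz2 alone held 78.6 to 123 and 120 to 139 TPM, while Csf1r stayed between 0 and 0.634 TPM. Of the endothelial markers, where Klf2 and Klf4 are abundant, Cdh5 and Plvap were at 0 in 5 of 6 libraries each, and Kdr was above 0 in all 6, at 0.903 to 1.65 and 0.560 to 1.02 TPM. The list summed to 43.3 to 46.6 and 39.4 to 46.6 TPM mostly through Tek, Vwf and Emcn, which stem cells also express. The megakaryocyte markers summed to 88.7 to 124 and 112 to 120 TPM, but 2 of the 6 were higher and 2 lower without overlap, as were 4.83% and 28.2% of all tested genes. Pf4 was higher, at 21.6 to 41.3 and 54.2 to 70.5 TPM, as was Ppbp, at 0 to 0.876 and 6.64 to 14.6 TPM. Gp9 was lower, at 12.0 to 23.9 and 0.564 to 5.56 TPM, as was Itga2b, at 46.7 to 47.3 and 27.2 to 43.0 TPM. After median-of-ratios scaling the Itga2b groups overlapped (log2 difference -0.066), and the other 3 genes kept their direction without overlap. Stromal markers summed to 1.16 to 6.71 and 1.32 to 1.52 TPM with Col1a1 and Lepr at 0. In such bulk samples, fewer cells of a type and less RNA per cell cannot be told apart.

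In the GENCODE M21 annotation of GRCm38, no other gene overlaps Klf2, Klf4, Klf6, Klf10 or Klf11. Klf3 shares its span with C230096K16Rik, an unconfirmed transcript on the same strand at 0.152 to 4.63 TPM, and with Gm20033 on the opposite strand at up to 1.80 TPM. Klf13 has Gm27252 on the opposite strand at up to 1.62 TPM. The libraries were stranded, and whether counting used strand is not given in the sources used here, so the values of Klf3 and Klf13 could include reads of these genes. Genes overlapping Klf7 and Klf12 and found in the table were at most 0.0131 TPM, and a microRNA inside Klf9 reached 3.50 TPM.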

How the data were processed

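Total RNA of 6 libraries, 3 uninduced and 3 induced, was made into stranded libraries with a pico-input kit, per the labels' protocols. The authors deposited 1 table of TPM values, and its name gives StringTie. The submitters' processing notes also name bcl2fastq, HISAT2, DESeq2 and the build GRCm38, without versions or roles. Annotation release and filters are not given in the sources used here. The deposited table gives the GC content of each gene in percent, which was not used in any test. Its 60496 rows, of which 5025 repeat a gene ID, were summed to 55471 genes, and columns then totalled 999976 to 999993. No Klf or list gene had repeated rows.

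Because TPM is not a count, log2(TPM + 1) was fitted with limma 3.58.1 (R 4.3.3; variance trend, two-sided, Benjamini-Hochberg over the 13470 genes whose mean reached 1 TPM, threshold 0.05). Fold changes on this scale understate those of low genes. For median-of-ratios scaling, libraries were divided by the median ratio to the geometric mean. Simulated data with known changes were used to check the fit. Planned were 16 alternatives, and 7 combinations with median-of-ratios scaling were added after seeing the data. Libraries were grouped by title. The named genes were the 10 Klf genes, up to 4 called genes without overlap from each of 6 lists, and further genes fixed by name, some of which are not reported here. Genes outside this rule are said to be named after their values were seen. The members and lists were chosen with earlier results of these data known. The GC and CCAAT boxes were added after the promoter sequences were seen. Protein sequences were not used here.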

Additional observations from a re-analysis of the deposited data

How the results depend on the processing

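The counts and changes were recomputed under 16 alternatives, and under 7 combinations added after seeing the data. The 1549 genes called became 752 without the expression filter, 767 without the variance trend, 814 with quantile normalization, 806 with median-of-ratios scaling and 886 with rescaling to nuclear protein-coding genes. The 3 Klf genes called became 1 in each of these settings: Klf4 without the filter or the trend, and Klf6 under the 3 scalings. Leaving out each library gave 573 to 1198 genes and 0 to 1 Klf genes. With median-of-ratios scaling and each library left out, 292 to 403 genes (the others 300, 302, 318 and 381) and 1 Klf gene, Klf6, passed. The pseudocounts, a mean of at least 5 TPM and array weights left the 3 Klf calls in place. With the replicate block, 902 genes and 1 Klf gene, Klf4, passed (Klf6 adjusted p 0.0904, Klf2 0.0722). With the block and median-of-ratios scaling, 451 genes and 1 Klf gene, Klf6 (adjusted p 0.0229), passed. Labels do not say that same-numbered libraries are related, and their deviations from the group means correlated at 0.0215, -0.0152 and 0.0172. Not every library correlated best with its own number. Among the single-gene values under the 16 alternatives, 127 kept direction and call, 28 lost a call and 3 changed sign, none of them in a called gene. Klf7 went from 0.039 to a range of -0.17 to 0.17 with a library left out, and Klf10 from 0.18 to a range of -0.086 to 0.40. Klf13 ranged from -0.24 to 0.019 with median-of-ratios scaling and a library left out. Klf7 and Klf12 have no value at a mean of at least 5 TPM. The cause of the lost calls was not tested. Depth is unknown.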
